A study of Mus musculus with 18 samples.

Results

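The comparison described here sets 2 short hairpin RNAs against each other that were both designed to lower Rnf185 in MPC3 cells. MPC3 is a mouse prostate cancer cell line, whose libraries carry the hairpin names shRNF185.1 and shRNF185.3. All 6 libraries of each hairpin were used, which makes 12 of the 18 libraries of the series, and 14309 of the 47643 genes in the deposited table passed the count filter. The other 6 libraries are controls, whose titles carry the name plko. Every library holds polyadenylated RNA read from a single end at 75 bases, and the labels place 2 libraries of each group in each of 3 batches. No drug, time point or further genotype is named in the labels, and whether each hairpin population was a pool or a clone is not given in the sources used here. The labels do not say that libraries of a group came from separate cultures, so the p-values measure the spread between these libraries, which may be technical. Total counts per library ran from 24601276 to 32415941 with shRNF185.1, from 22027395 to 32248044 with shRNF185.3 and from 24067000 to 43379662 in control. Levels of single genes are given in CPM, the authors' deposited counts scaled by effective library size. A log2 difference below is the level with shRNF185.3 minus that with shRNF185.1, and a gene is called at an adjusted p under 0.05 in edgeR's quasi-likelihood F test with Benjamini-Hochberg adjustment.

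Rnf185 encodes a ubiquitin ligase of the endoplasmic reticulum membrane that takes part in the removal of misfolded and unneeded membrane proteins, and Rnf5 encodes its close relative. A hairpin RNA is cut by Dicer to a short duplex, from which a strand is loaded into an Argonaute protein and guides it to the fully paired target. The same loaded strand can also lower messages that pair only with its seed, bases 2 to 8, mostly at sites in the 3′ UTR. Hairpins against different stretches of a message therefore share the intended target and differ in their seeds.

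The targeted gene was low with both hairpins, in overlapping ranges. Rnf185 (ENSMUSG00000020448, chr11:3415982-3452363, minus strand, GRCm38) stood at 33.6 to 38.4 CPM (median 36.2) in control, 5.21 to 6.8 CPM with shRNF185.1 (median 5.63) and 5.19 to 6.72 CPM with shRNF185.3 (median 5.73). The ranges of the hairpins overlapped, and every hairpin library lay below every control library. The difference between the hairpins was -0.00083 (SE 0.076, adjusted p = 0.997), and within batches 1, 2 and 3 it was 0.17, -0.086 and -0.081. Rnf5 had a difference of -0.092 (SE 0.08, adjusted p = 0.551) and was not called.

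With Rnf185 this low with both hairpins, 2098 genes were called between the hairpins, 14.7% of those tested. Of these, 1105 (7.72% of genes tested) were higher and 993 (6.94%) lower with shRNF185.3. Most differences were small: the median size of a called difference was 0.35 on the log2 scale, 68.0% of the called genes differed by under 0.5, and 182 differed by at least 1, of which 128 were higher and 54 lower with shRNF185.3. Among the called genes, 1139 had no overlap between the 6 libraries of each hairpin, and over all genes tested 1180 (8.25%) had none. Without batch 1 the count was 753 and without batch 2 it was 1208, each fit having 4 libraries per hairpin. In a test of whether the hairpin difference itself differed between batches, 46 genes were called (0.321%), and none of the 2098 was among them. At an unadjusted p under 0.05 that test held 1469 genes. It had 2 libraries of each hairpin per batch, on counts already adjusted for batch. With limma on the log2(CPM + 1) scale, which shrinks differences of low genes, 17 of the 175 called genes named below differed by over 1.5 times less and kept their calls, and their values on that scale are given beside them.

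**Figure D1:**
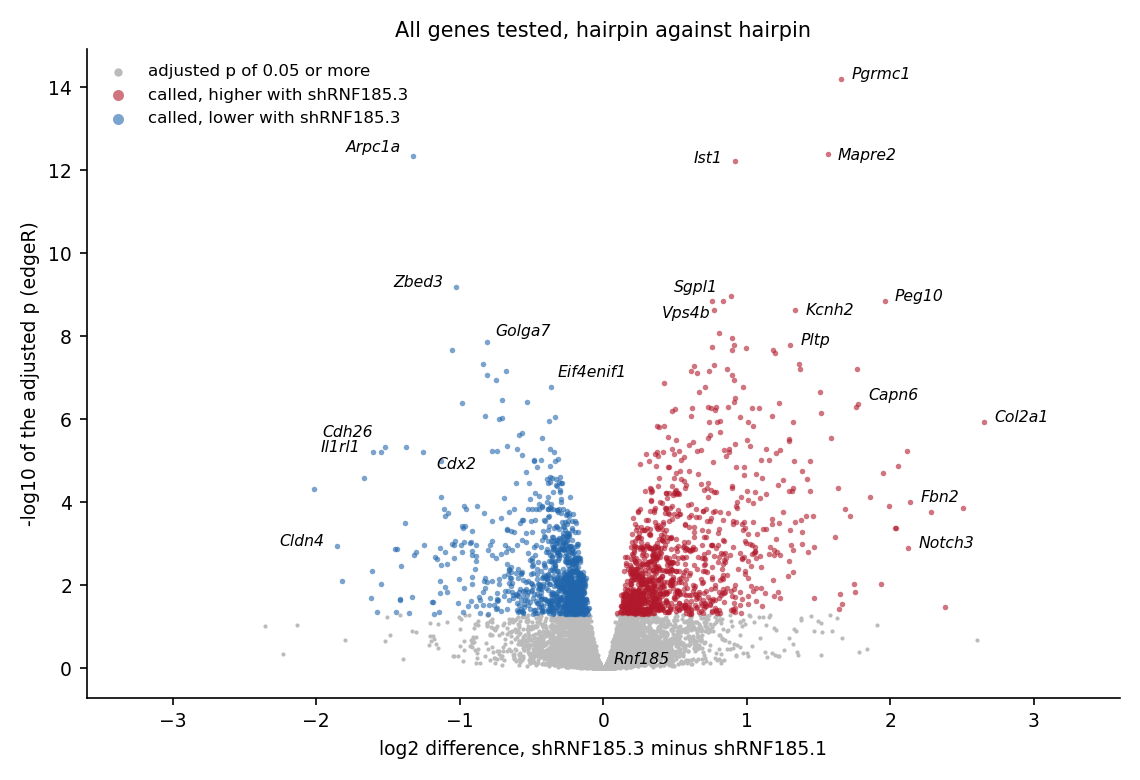
Each point is a gene tested, with the log2 difference shRNF185.3 minus shRNF185.1 on the horizontal axis and −log10 of edgeR's adjusted p on the vertical axis; red and blue points are called higher and lower with shRNF185.3. Pgrmc1, Mapre2, Ist1 and Arpc1a lie at the top, and Rnf185 lies at the bottom near 0.

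The lowest p of all belonged to Pgrmc1 (ENSMUSG00000006373), which encodes a heme-binding membrane protein of the endoplasmic reticulum. It stood at 108 to 126 CPM (median 115) in control, 32.7 to 36.3 CPM with shRNF185.1 (median 35.5) and 102 to 116 CPM with shRNF185.3 (median 111). All 6 shRNF185.1 libraries lay far below the rest, and the shRNF185.3 libraries overlapped the controls. The hairpin difference was 1.66 (SE 0.044, adjusted p = 6.23e-15), made up of -1.72 against control with shRNF185.1 and -0.064 with shRNF185.3.

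Mapre2 (ENSMUSG00000024277), which encodes a protein that binds the growing ends of microtubules, stood at 12.6 to 15.1 CPM with shRNF185.1 (median 14) and 36.8 to 44 CPM with shRNF185.3 (median 41). The groups did not overlap, and the control libraries, at 29.8 to 31.9 CPM (median 31.2), lay between them. Its difference was 1.56 (SE 0.054, adjusted p = 4.03e-13). Within batches 1, 2 and 3 it was 1.56, 1.56 and 1.56. The deposited counts had been adjusted for batch by the authors, and whether that adjustment was told the groups is not given in the sources used here, so the batches may not be independent repeats.

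Many other genes of lowest p shared the Pgrmc1 pattern, in which the shRNF185.1 libraries were low and those of shRNF185.3 near control. These were named after their values were seen. Ist1 and Vps4b, which encode parts of the ESCRT machinery for membrane scission, were higher with shRNF185.3, Ist1 by 0.92 (SE 0.034, adjusted p = 5.9e-13) and Vps4b by 0.83 (SE 0.049, adjusted p = 1.41e-09). Against control, Ist1 was at -0.95 with shRNF185.1 and -0.03 with shRNF185.3, and Vps4b at -0.88 and -0.049. Sgpl1, the lyase that breaks down sphingosine 1-phosphate, differed by 0.89 (SE 0.051, adjusted p = 1.08e-09). Acbd5, a tether between peroxisomes and the endoplasmic reticulum, differed by 1.18, Nemp1, a protein of the nuclear envelope, by 0.77, and Fnbp1l, a membrane-curving protein of endocytosis, by 0.77. In each of these genes all shRNF185.3 libraries lay above all shRNF185.1 libraries.

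Among the genes called lower with shRNF185.3, several of lowest p were below control with that hairpin only. Arpc1a (ENSMUSG00000029621), a subunit of the Arp2/3 complex that starts branched actin filaments, stood at 114 to 136 CPM (median 121) in control, 121 to 135 CPM with shRNF185.1 (median 125) and 46.2 to 52.8 CPM with shRNF185.3 (median 50.9). The shRNF185.3 libraries lay below all others, and those of shRNF185.1 overlapped the controls. The hairpin difference was -1.32 (SE 0.047, adjusted p = 4.59e-13). Zbed3, an Axin-binding protein of the Wnt pathway, stood at 24.5 to 29.7 CPM with shRNF185.1 (median 26.8) and 12.7 to 13.8 CPM with shRNF185.3 (median 13.4), again with no overlap, and differed by -1.03 (SE 0.056, adjusted p = 6.51e-10). Golga7, which acts with a palmitoyltransferase on Ras, and Rnf144b, a ubiquitin ligase, differed by -0.81 and -0.75. Eif4enif1, a translational repressor of P-bodies, differed by -0.36 (SE 0.031, adjusted p = 1.67e-07), at 0.018 against control with shRNF185.1 and -0.35 with shRNF185.3. Zbed3, Golga7, Rnf144b and Eif4enif1 were named after their values were seen.

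**Figure D2:**
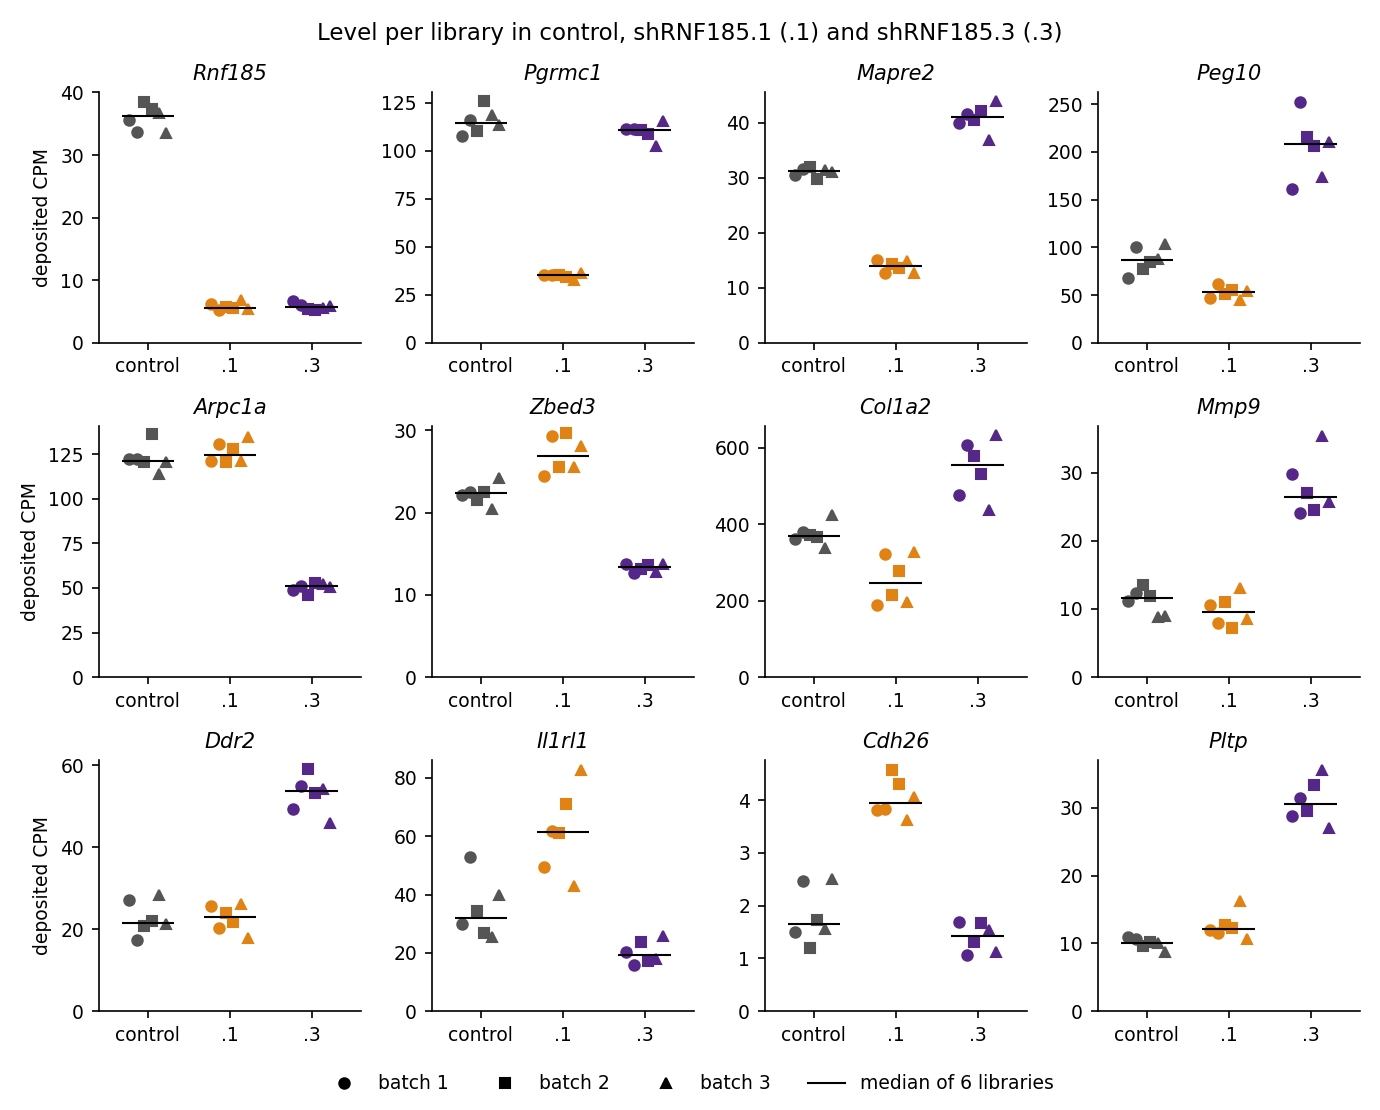
Deposited CPM of 12 genes (vertical axes, starting at 0) in each of the 6 libraries of control, shRNF185.1 and shRNF185.3; colours mark the groups, symbols the batches and lines the medians. Rnf185 is low with both hairpins, Pgrmc1 is low with shRNF185.1 only, and Arpc1a and Zbed3 are low with shRNF185.3 only.

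The nearest tested genes on either side of the 3 genes of lowest p were compared. Lonrf3 and Akap17b beside Pgrmc1 differed by -0.05, adjusted p = 0.781, and 0.14, adjusted p = 0.423. Dtna and Zfp397 beside Mapre2 differed by -0.024, adjusted p = 0.909, and 0.03, adjusted p = 0.89. Arpc1b and Smurf1 beside Arpc1a differed by -0.052, adjusted p = 0.636, and 0.038, adjusted p = 0.722. None of these 6 neighbours was called, and whether any longer stretch of a chromosome differed was not tested. Over the autosomes and the X chromosome the share called ran from 12.5% on chromosome 11 to 19.2% on chromosome 18.

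Each sequence of 7 bases in the 3′ UTRs was then scored for the hairpin difference of the genes that hold it. The longest annotated 3′ UTR of each gene in GENCODE M21 was used for the 10897 genes with a mean count of at least 50 over the hairpin libraries, and the trend with UTR length was removed. Among 15613 sequences found in at least 100 of these UTRs, AATGGTA had the highest score for shRNF185.3 minus shRNF185.1, and ATGGTAA, which shares 6 of its bases, came second. The ranking used the same values that it describes, so no test is given. The hairpins' own sequences are not in the sources used here, and whether AATGGTA pairs with the seed of either hairpin was not tested.

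The 30 bases around the match are shown for Rnf185 and for 7 of the genes of lowest p that hold it, so that the shared letters and the differing surroundings can be compared. All are written 5′ to 3′ on the strand of the message, with the match in capitals. The positions on GRCm38 are chr11:3417640-3417669 (minus) for Rnf185, chrX:36605098-36605127 (plus) for Pgrmc1, chr10:61098750-61098779 (minus) for Sgpl1, chr1:106772218-106772247 (minus) for Vps4b, chr6:4760132-4760161 (plus) for Peg10, chr11:114719461-114719490 (plus) for Ttyh2, chr3:108556612-108556641 (minus) for Tmem167b and chrX:20519692-20519721 (plus) for Jade3. All lie in the 3′ UTR.
Rnf185: aatgaagggatgaaccaAATGGTAtttaca
Pgrmc1: ttcagtgctgtaatgcaAATGGTAaagcta
Sgpl1: cagttttatacttggaaAATGGTActtgcc
Vps4b: attgtaaggaaagcaacAATGGTAtgagga
Peg10: taaagtttagaatgttgAATGGTAaatgtt
Ttyh2: accctcagcagatgaaaAATGGTAattgag
Tmem167b: ttttttggcaaagacaaAATGGTAaattgt
Jade3: tcaagtcagggagataaAATGGTAactttt
Rnf185 holds the match in its own 3′ UTR, where it occurs 1 time. Pgrmc1 holds it 3 times and Vps4b 5 times. Mapre2 also holds it, 1 time, and is not among the lines shown. The 3′ UTRs of Ist1 and Nemp1 do not hold it. The hairpin difference was 0.91 (SE 0.064, adjusted p = 1.65e-08) in Ttyh2, 0.76 (SE 0.054, adjusted p = 1.8e-08) in Tmem167b and 1.0 (SE 0.071, adjusted p = 1.95e-08) in Jade3. Against control with shRNF185.1, Jade3 was at -1.27, Tmem167b at -0.67 and Ttyh2 at -0.22. With shRNF185.3 they were at -0.27, 0.091 and 0.69, so most of the difference in Ttyh2 lay above control with shRNF185.3. Ttyh2, Tmem167b and Jade3 were named after their values were seen.

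The genes that hold AATGGTA were higher with shRNF185.3 than the rest, and more so with an A after the match. Among 328 genes with AATGGTAA the median difference was 0.099 on the log2 scale, with 32.6% called higher and 3.96% called lower. Among the 634 genes with the 7 bases and no A after them in any copy the median was 0.048, with 18.3% called higher. Among the 9935 genes without the 7 bases the median was -0.013, with 6.63% called higher and 8.51% lower. Over all 10897 genes scanned, 8.09% were called higher. Seen from the calls, 25.3% of the genes called higher and 6.63% of those called lower hold the 7 bases, against 8.83% of all genes scanned and 8.0% of the 20962 annotated 3′ UTRs. Of the 40 genes of lowest p called higher, 28 hold it, and of the 40 called lower, 2 do. AATGGTA was picked for its score on these same differences, so these medians and shares are in part built in. The same holds for the A after it, since ATGGTAA came second in that scan. Among the genes named below as lower with shRNF185.3, Cpm, Pcdh7 and Ddx3y hold 1 copy each.

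Against control, the genes with the match were lower with shRNF185.1 than with shRNF185.3. Genes with AATGGTAA had a median of -0.133 with shRNF185.1 and -0.052 with shRNF185.3, and genes without the 7 bases had -0.0075 and -0.025. In the same scan, AATGGTA had the lowest score of all 15613 sequences for shRNF185.1 minus control and the 3205th lowest for shRNF185.3 minus control. These comparisons share the control libraries, and each also shares its hairpin libraries with the comparison that picked AATGGTA. A low rank for shRNF185.1 minus control is therefore in part built in, and no test is given. Within UTRs of 1000 to 2000 bases the median was 0.078 with the match and -0.019 without. The same letters in the coding sequence only gave a median of 0.0062 (450 genes), and the reverse complement TACCATT in the 3′ UTR gave -0.0099 (1030 genes). Neither was picked by its score, so a smaller value than that of the picked match is in part built in.

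**Figure D3:**
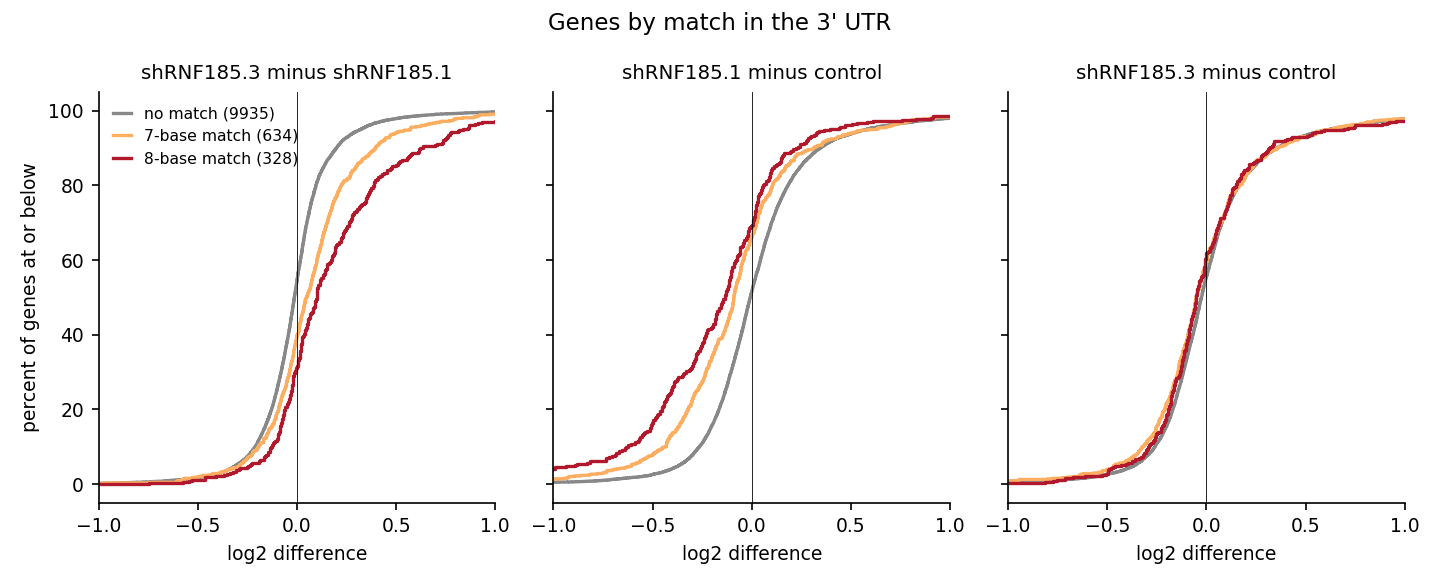
Cumulative share of genes (vertical axis, percent) at or below each log2 difference (horizontal axis, shown from −1 to 1), for genes with no match, a 7-base match or an 8-base match in the 3′ UTR, in 3 comparisons. The matched curves lie to the right for shRNF185.3 minus shRNF185.1, to the left for shRNF185.1 minus control and close to the unmatched curve for shRNF185.3 minus control.

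In the other direction the shifts were smaller. The sequence with the lowest score, TTTGGGA, stood in 1841 UTRs with a median of -0.027 against -0.0054 without it, and 12.6% of its genes were called lower against 7.43%. With an A before it (505 genes) the median was -0.037 and 17.6% were called lower. TTTGGGA too was picked by these same differences, so these medians and shares are in part built in. Its copies in coding sequence (1258 genes, median -0.024) and its reverse complement (1479 genes, median -0.021) gave values close to that of the match itself. It had the 101st lowest score for shRNF185.3 minus control. The 3′ UTRs of Zbed3, Golga7 and Eif4enif1 and the coding sequence of Rnf185 hold it, and the surroundings are shown with the match in capitals, at chr13:95337707-95337736 (plus), chr8:23241600-23241629 (minus), chr11:3244514-3244543 (plus) and chr11:3419901-3419930 (minus).
Zbed3: caaatcactgcatttgaTTTGGGAaaaatg
Golga7: aatttgagagcactgtgTTTGGGAgaagtt
Eif4enif1: tttttttcacttgaataTTTGGGActtttt
Rnf185 (coding): gaattggagcatttccaTTTGGGAtatttg
The 3′ UTR of Arpc1a does not hold these letters. In 287 genes the 3′ UTR holds both AATGGTA and TTTGGGA, among them Vps4b, Erlin2, Met, Cldn12 and Tnrc6a.

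Ranked by size, the genes highest with shRNF185.3 were of mixed function. Peg10, an imprinted gene derived from a retrotransposon, stood at 44.6 to 61.1 CPM with shRNF185.1 (median 52.8) and 161 to 252 CPM with shRNF185.3 (median 208), and its difference was 1.96 (SE 0.12, adjusted p = 1.43e-09). The groups did not overlap, and the control libraries, at 67.8 to 104 CPM (median 86.3), lay between them. Prnd, a relative of the prion gene, differed by 1.86, Capn6, a calpain without protease activity, by 1.78, and Alcam, a cell adhesion protein, by 1.64. Dcn, the collagen-binding proteoglycan decorin, differed by 1.62 (SE 0.29, adjusted p = 0.000672). It was at -2.11 against control with shRNF185.1 and -0.5 with shRNF185.3. Prnd shares 95.2% of its 75-base windows with another annotated gene, so its count is uncertain. Prnd and Alcam differed by 1.22 and 1.02 on the log2(CPM + 1) scale.

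Another 5 of the 12 genes highest by the same rule were predicted gene models. They were Gm10718 (2.29), Gm10800 (1.77), Gm26870 (1.77), Gm21738 (1.72) and Gm10801 (1.68), named after their values were seen. Gm10718 shares 52.4% of its 75-base windows with 9 other genes and Gm21738 21.8%, so the counts of these models are uncertain. The share was 7.85% in Gm10800, 2.79% in Gm10801 and 0 in Gm26870. Gm10800 was at 6.37 to 11.3 CPM with shRNF185.1 (median 8.69) and 23.3 to 34 CPM with shRNF185.3 (median 30.1), with no overlap. Gm10801 differed by 1.1 on the log2(CPM + 1) scale.

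The genes lowest with shRNF185.3 were also of mixed function. Il1rl1, the receptor of interleukin 33, stood at 43 to 82.6 CPM with shRNF185.1 (median 61.3) and 16 to 25.7 CPM with shRNF185.3 (median 19.2). The groups did not overlap, and the control libraries, at 25.5 to 52.8 CPM (median 32), overlapped both hairpins. Its difference was -1.61 (SE 0.18, adjusted p = 6.1e-06). Cdh26, a cadherin, differed by -1.52, Cdx2, an intestinal homeobox factor, by -1.25, and Sprr2h and Prr9, genes of the epidermal differentiation complex, by -1.38 and -1.14. Akr1c18, which inactivates progesterone, differed by -1.45, Fam84a by -1.16 and the class I gene H2-T10 by -1.13. Gda, the guanine deaminase, Cpm, a membrane carboxypeptidase, and Cldn2, a channel-forming claudin, had differences of -1.55, -1.42 and -1.42 with overlapping libraries. H2-T10 shares 16% of its windows with another gene. Gda lost its call without batch 1 (adjusted p = 0.149) and batch 3 (adjusted p = 0.0638), and Cpm lost its call without batch 1 (adjusted p = 0.118), batch 2 (adjusted p = 0.112) and batch 3 (adjusted p = 0.0638). Cldn2 lost its call without batch 1 (adjusted p = 0.193) and batch 3 (adjusted p = 0.0537).

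**Figure D4:**
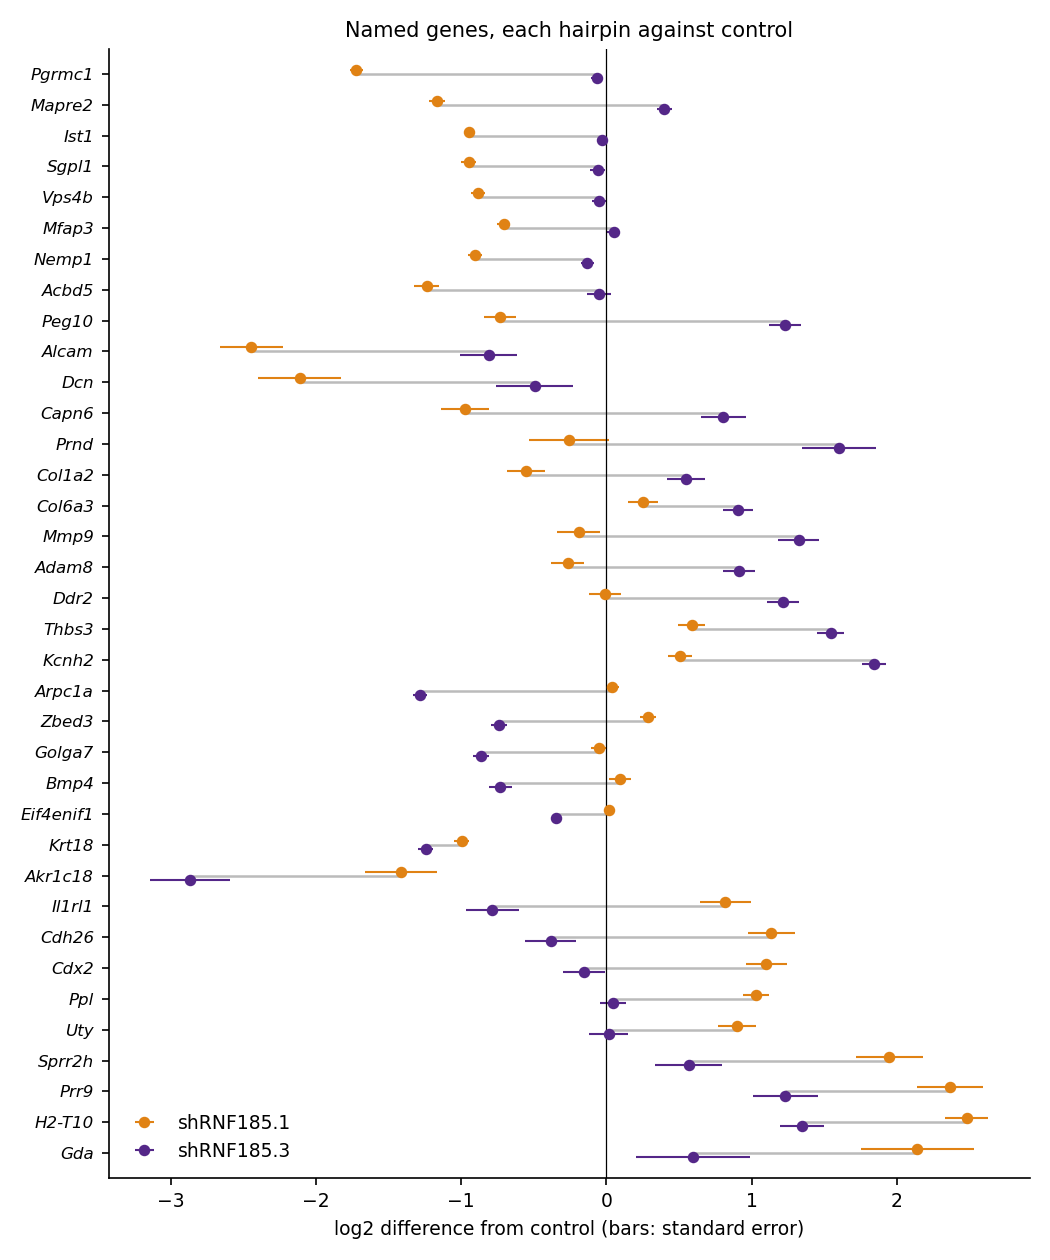
Log2 difference from control (horizontal axis) of 36 named genes with shRNF185.1 (orange) and shRNF185.3 (purple); points are edgeR estimates, bars their standard errors, and both hairpins share the control libraries. The rows from Pgrmc1 to Capn6 lie below control with shRNF185.1, the rows from Arpc1a to Eif4enif1 are low with shRNF185.3 only, and the rows from Il1rl1 down lie above control with shRNF185.1.

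The called genes lay on both sides of control. Of the 1105 genes higher with shRNF185.3, 537 were called below control with shRNF185.1 and 472 above control with shRNF185.3. Of the 993 genes lower with shRNF185.3, 409 were called above control with shRNF185.1 and 415 below control with shRNF185.3. Over all genes tested, 28.9% were called with shRNF185.1 and 27.3% with shRNF185.3 against control. These counts share libraries with the hairpin comparison and describe it only.

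Of the collagen chains, 11 of the 29 tested were called higher with shRNF185.3 and 1 lower, a share called of 41.4% against 14.7% over all genes, and their median difference was 0.48 against -0.0004. Col1a2, a chain of type I collagen, stood at 189.9 to 327 CPM with shRNF185.1 (median 245) and 438 to 635 CPM with shRNF185.3 (median 556). No library overlapped, and the controls, at 339 to 425 CPM (median 369), lay between the hairpins without touching either. Its difference was 1.1 (SE 0.13, adjusted p = 9.65e-06). Col6a3, a chain of the beaded type VI filaments, differed by 0.65 (SE 0.1, adjusted p = 0.000224), and Col18a1, a basement membrane collagen, by 0.48 (SE 0.077, adjusted p = 0.000248). Col2a1, the cartilage collagen, was far lower in level, at 0.154 to 0.368 CPM with shRNF185.1 (median 0.192) and 1.16 to 1.93 CPM with shRNF185.3 (median 1.45), and differed by 2.66 (SE 0.26, adjusted p = 1.16e-06). Col1a1, the partner of Col1a2, differed by 0.9 (SE 0.28, adjusted p = 0.0379) with overlapping libraries, and Col5a3 was the chain called lower (-0.71). Col2a1, Col1a1 and Col5a3 were named after their values were seen. Without batch 2, 7 chains were called higher and the median was 0.32, and without batch 3 also 7 were. With a mean count of at least 50, 20 chains were tested, 6 were called higher and the median was 0.26. Col2a1 differed by 1.01 on the log2(CPM + 1) scale. Col5a3 (adjusted p up to 0.236) lost its call in 4 of the 15 alternative settings. Col1a1 (adjusted p up to 0.283) lost its call in 5 of the 15 alternative settings.

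Col3a1, the collagen in the series title, was not called between the hairpins. It stood at 919 to 1699.5 CPM with shRNF185.1 (median 1022) and 1172 to 2082 CPM with shRNF185.3 (median 1659), with overlapping ranges, and its difference was 0.49 (SE 0.18, adjusted p = 0.0688). Within batches 1, 2 and 3 the difference was 0.061, 0.85 and 0.62. Among the settings without a replicate term, it passed the threshold with DESeq2 (adjusted p = 0.033) and without batch 1 (0.72, adjusted p = 0.0191), and not when libraries were summed by group and batch (adjusted p = 0.0543). Of the 6 collagen chains called higher whose 3′ UTRs were scanned, none holds AATGGTA, against 25.3% of all scanned genes called higher.

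Among matrix glycoproteins and proteoglycans, 13 of the 42 tested were called higher with shRNF185.3 and 2 lower, 35.7% in all, with a median of 0.15. Thbs3, a thrombospondin, stood at 23.1 to 28.9 CPM with shRNF185.1 (median 25.3) and 45 to 55.3 CPM with shRNF185.3 (median 49.2) without overlap and differed by 0.96 (SE 0.093, adjusted p = 8.63e-07). Smoc2, a matricellular protein, differed by 0.84 and Emilin1, of elastic fibres, by 0.77. The 2 called lower were Fbln5, also of elastic fibres (-1.11), and Postn, periostin (-0.63). Both were above control with each hairpin, Postn at 1.2 with shRNF185.1 and 0.57 with shRNF185.3. Laminin chains were split, with Lamb1 (0.2) and Lama3 (0.9) higher and Lamc1 (-0.22) and Lamb2 (-0.27) lower among 9 tested (44.4% called). Fbln5, Postn and Lama3 were named after their values were seen. Lama3 differed by 0.38 on the log2(CPM + 1) scale. Lamc1 lost its call without batch 1 (adjusted p = 0.0564), and Lamb2 lost its call without batch 1 (adjusted p = 0.172). Lamb1 (adjusted p up to 0.282) lost its call in 7 of the 15 alternative settings. Lama3 (adjusted p up to 0.166) lost its call in 8 of the 15 alternative settings.

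Of the enzymes and chaperones that process collagen, 4 of the 26 tested were called higher with shRNF185.3 and 4 lower, 30.8% in all. The median was 0.076. The 4 higher were Adamts3 (0.98) and Adamts14 (0.53), which trim procollagen, P4ha3 (0.22), a prolyl hydroxylase, and Crtap (0.21). The 4 lower were the lysyl oxidases Loxl1 (-0.89) and Loxl4 (-0.24), P3h2 (-0.2), a prolyl hydroxylase, and Serpinh1, the collagen chaperone (-0.83). Those other than Adamts3, Loxl1 and Serpinh1 were named after their values were seen. Serpinh1 stood at 13.6 to 24.2 CPM with shRNF185.1 (median 17.1) and 6.97 to 13.5 CPM with shRNF185.3 (median 9.49), and it was above control with both hairpins (1.63 and 0.8). Without batch 3, P4ha3 differed by 0.34. Loxl1 lost its call without batch 2 (adjusted p = 0.0545), and Serpinh1 lost its call without batch 1 (adjusted p = 0.0952) and batch 2 (adjusted p = 0.0765). Adamts14 (adjusted p up to 0.172), P4ha3 (adjusted p up to 0.398), Crtap (adjusted p up to 0.262) and Loxl4 (adjusted p up to 0.343) lost their calls in 6 of the 15 alternative settings. P3h2 (adjusted p up to 0.228) lost its call in 9 of the 15 alternative settings.

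Among matrix proteases and their inhibitors, 8 of the 42 tested were called higher with shRNF185.3 and 5 lower, 31.0% in all. Mmp9, a gelatinase, stood at 7.17 to 13.1 CPM with shRNF185.1 (median 9.58) and 24 to 35.4 CPM with shRNF185.3 (median 26.4), and the control libraries, at 8.81 to 13.5 CPM (median 11.6), overlapped those of shRNF185.1. The shRNF185.3 libraries lay above all others, and the difference was 1.52 (SE 0.14, adjusted p = 7.12e-07). Adam8, a membrane sheddase, stood at 11.4 to 17 CPM with shRNF185.1 (median 12.9) and 28.4 to 35.5 CPM with shRNF185.3 (median 29.6), also without overlap, and differed by 1.18 (SE 0.11, adjusted p = 8.5e-07). Among those lower were Plat, an activator of plasminogen (-0.36), the inhibitor Timp3 (-0.39), Mmp3 (-0.89) and Adam17 (-0.2). Plat, Timp3, Mmp3 and Adam17 were named after their values were seen. Timp3 lost its call without batch 1 (adjusted p = 0.187), and Adam17 lost its call without batch 1 (adjusted p = 0.113) and batch 2 (adjusted p = 0.0607). Mmp3 (adjusted p up to 0.262) lost its call in 4 of the 15 alternative settings. Plat (adjusted p up to 0.238) lost its call in 5 of the 15 alternative settings.

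Of the integrins, which are receptors for matrix, 6 of the 20 tested were called higher with shRNF185.3 and 0 lower, with a median of 0.028. Itgav, the chain that binds vitronectin, stood at 142 to 169 CPM with shRNF185.1 (median 161) and 230.4 to 256 CPM with shRNF185.3 (median 238) and differed by 0.6 (SE 0.066, adjusted p = 4.24e-06), and its 3′ UTR holds AATGGTA. Itgb8, which activates TGF-beta with Itgav, differed by 0.64, and Itgb7 by 0.57. Ddr2, a receptor tyrosine kinase for fibrillar collagen, stood at 17.9 to 26.1 CPM with shRNF185.1 (median 22.9) and 46 to 59.1 CPM with shRNF185.3 (median 53.8). The shRNF185.3 libraries lay above all others, the controls overlapped shRNF185.1, and the difference was 1.23 (SE 0.11, adjusted p = 4e-07). Itgb8 lost its call without batch 2 (adjusted p = 0.0672).

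The markers of fibroblasts shared members with these lists. The list holds 15, of which 9 were tested. Among those tested, 5 were called higher (Col1a1, Col1a2, Dcn, Pdgfra and Pdgfrb) and 1 lower (Postn), 66.7% in all against 14.7% over all genes. The untested Thy1, Tcf21, Fap, Mfap5, Pi16 and Lum had 3, 0, 11, 13, 79 and 148 counts in total over the 18 libraries. Pdgfrb, a receptor of platelet-derived growth factors, differed by 0.23 and was named after its values were seen. Pdgfrb (adjusted p up to 0.191) lost its call in 7 of the 15 alternative settings. The markers' summed level ran from 2526 to 3743 CPM with shRNF185.1 and from 2951 to 4508 CPM with shRNF185.3. Leukocyte markers summed to 2.24 to 3.56 CPM and 2.86 to 4.37 CPM, with 3 of 15 at 0 in all libraries and 2 above the count filter. In bulk RNA, fewer cells of a type and less RNA per cell cannot be told apart, and the part of cell makeup in the matrix differences was not tested.

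**Figure D5:**
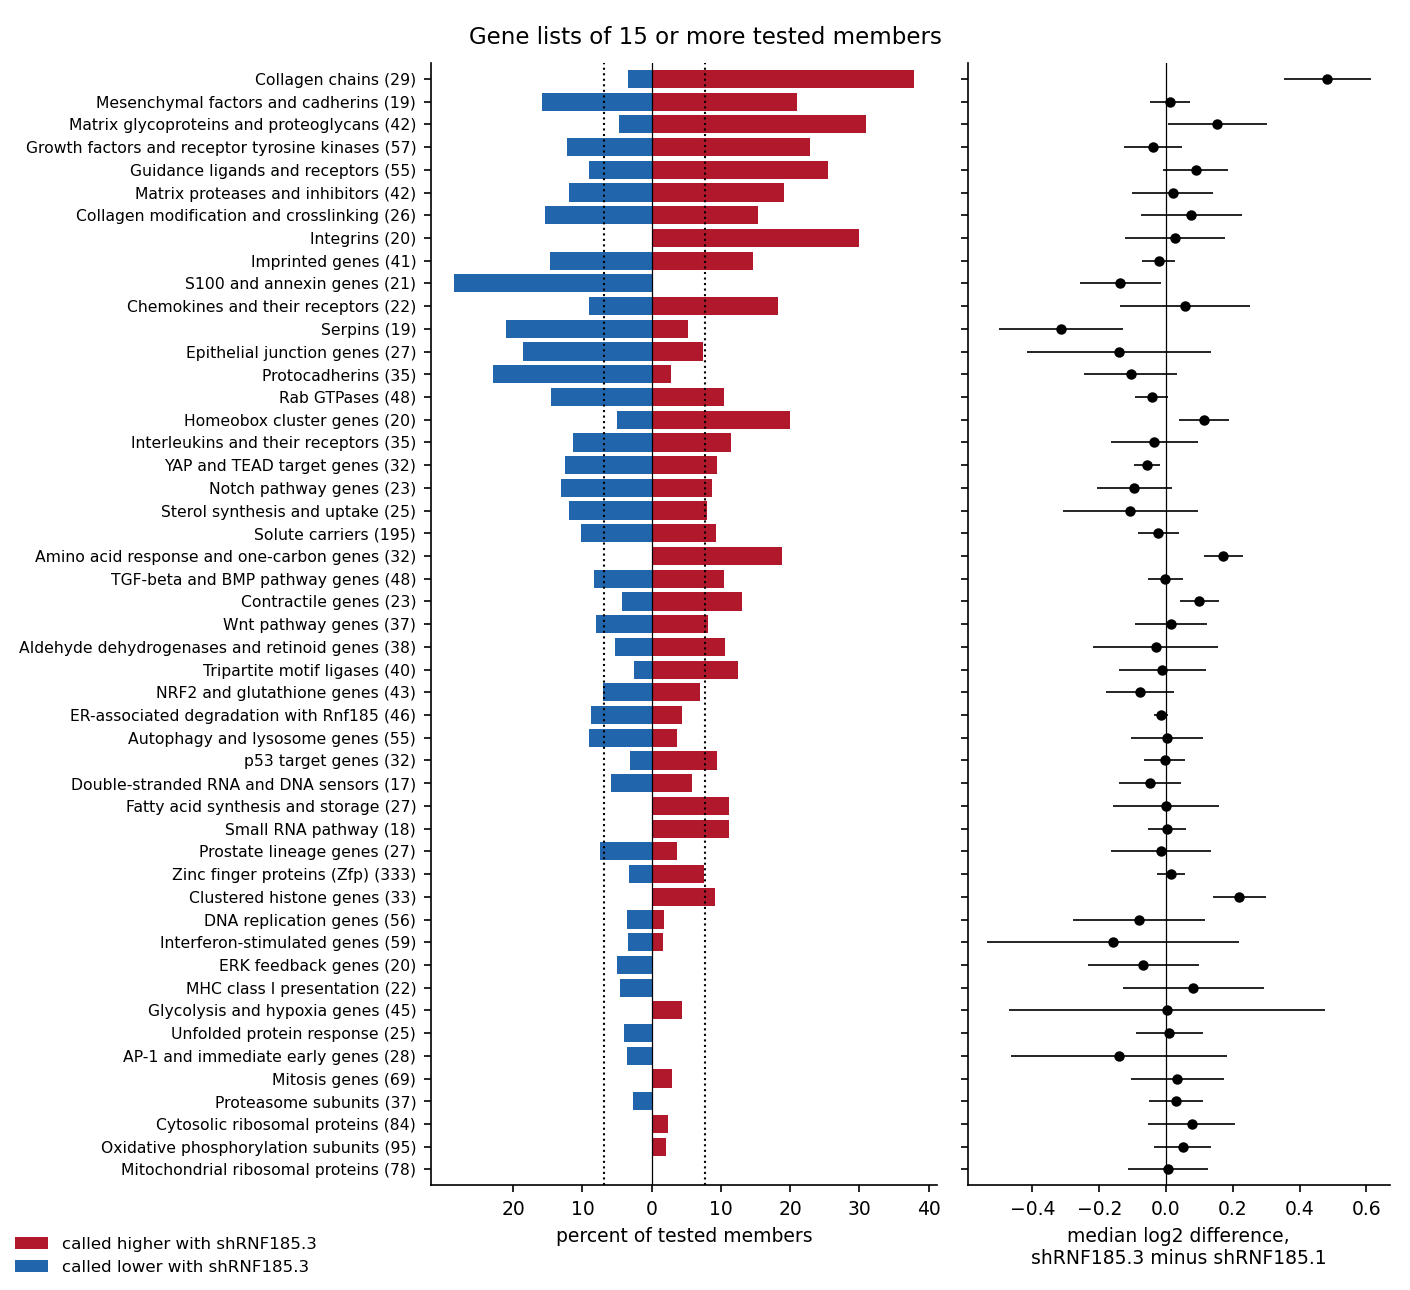
Left, percent of the tested members of each gene list (numbers in brackets) called higher (red, rightwards) or lower (blue, leftwards) with shRNF185.3, with dotted lines at the shares over all genes, 7.72% and 6.94%. Right, the median log2 difference of each list, with bars showing the SD over the 6 shRNF185.1 libraries of the list's mean log2 level; among the lists shown, collagen chains have the largest share called higher and the highest median.

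Of the epithelial junction genes, 2 of the 27 tested were called higher with shRNF185.3 and 5 lower, 25.9% in all. Their median was -0.14. The tight junction claudins Cldn4 and Cldn3 were low in level, and Cldn4 stood at 0.814 to 2.25 CPM with shRNF185.1 (median 1.4) and 0.218 to 0.667 CPM with shRNF185.3 (median 0.362). Their differences were -1.85 (SE 0.35, adjusted p = 0.00115) and -1.44 (SE 0.28, adjusted p = 0.00131), and both stood near control with shRNF185.1 (0.036 and 0.024). Grhl3, a factor of epithelial barriers, was lower too (-1.57), as was Cldn2. The 2 higher were Cldn12 (0.75), whose 3′ UTR holds AATGGTA, and Pkp1, a desmosomal plaque protein (0.36). Krt18, a keratin of simple epithelium, differed by -0.25 (SE 0.053, adjusted p = 0.00331) and was below control with both hairpins (-1.0 and -1.25). Ppl, the desmosome-linked periplakin, differed by -0.98 (SE 0.089, adjusted p = 3.95e-07) and was raised above control with shRNF185.1 (1.03) and not with shRNF185.3 (0.044). Of the 8 tested markers that define epithelium, 3 were called lower and none higher (14.7% called over all genes), and their summed level ran from 1021 to 1777 CPM with shRNF185.1 and from 1189 to 1395 CPM with shRNF185.3. Untested in that list were Epcam, Esrp1, Cldn7 and Krt7, with 43, 0, 24 and 27 counts in total over the 18 libraries. Cldn3, Cldn4, Grhl3, Pkp1 and Ppl were named after their values were seen. Cldn4, Cldn3 and Grhl3 differed by -0.78, -0.85 and -0.45 on the log2(CPM + 1) scale. Cldn3 lost its call without batch 1 (adjusted p = 0.0529), and Pkp1 lost its call without batch 2 (adjusted p = 0.0773) and batch 3 (adjusted p = 0.162). Krt18 lost its call without batch 1 (adjusted p = 0.0571) and batch 2 (adjusted p = 0.106). Grhl3 (adjusted p up to 0.332) lost its call in 6 of the 15 alternative settings.

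Among mesenchymal factors and cadherins, 4 of the 19 tested were called higher with shRNF185.3 and 3 lower, 36.8% in all. Pdpn, podoplanin, stood at 11.2 to 18.6 CPM with shRNF185.1 (median 15.3) and 6.53 to 10.6 CPM with shRNF185.3 (median 7.87) and differed by -0.89 (SE 0.17, adjusted p = 0.00106). Cdh13 was lower (-0.6) and Cdh3, P-cadherin, higher (0.78), both with overlapping libraries. Among transcription factors of this list, Twist1 (0.86), Snai2 (0.35) and Snai1 (0.27) were higher and Twist2 (-0.41) lower, named after their values were seen. Cdh13 lost its call without batch 1 (adjusted p = 0.0697), and Cdh3 lost its call without batch 2 (adjusted p = 0.0646). Twist1 lost its call without batch 1 (adjusted p = 0.238) and batch 2 (adjusted p = 0.0655), and Snai2 lost its call without batch 2 (adjusted p = 0.159) and batch 3 (adjusted p = 0.0636). Twist2 lost its call without batch 1 (adjusted p = 0.0519) and batch 2 (adjusted p = 0.0595). Snai1 (adjusted p up to 0.159) lost its call in 4 of the 15 alternative settings.

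Growth factors and receptor tyrosine kinases were called in both directions, 13 of 57 were called higher with shRNF185.3 and 7 lower, 35.1% in all. Besides Ddr2, Met, the receptor of hepatocyte growth factor, differed by 0.51 (SE 0.069, adjusted p = 5.02e-05). It was below control with shRNF185.1 (-0.67), and its 3′ UTR holds AATGGTA. Pdgfc, a platelet-derived growth factor, differed by 0.54, and its receptor Pdgfra by 0.46. In the list of the TGF-beta and BMP pathways, 5 of 48 were called higher and 4 lower. That was 18.75% in all against 14.7% over all genes, and the median was -0.0015. Bmp4, a bone morphogenetic protein, stood at 13.3 to 16.1 CPM with shRNF185.1 (median 15.4) and 7.32 to 9.85 CPM with shRNF185.3 (median 8.46), without overlap, and its difference was -0.82 (SE 0.08, adjusted p = 8.5e-07). The other three lower were Smad4 (-0.18), the shared signal transducer, its repressor Ski (-0.3) and the ligand Gdf11 (-0.21). Higher were the receptors Tgfbr1 (0.45) and Acvr2a (0.53), the repressor Skil (0.23) and the ligands Inhbb (0.71) and Gdf15 (0.64). These 8 besides Bmp4 were named after their values were seen. Gdf15 differed by 0.28 on the log2(CPM + 1) scale. Smad4 lost its call without batch 1 (adjusted p = 0.1) and batch 2 (adjusted p = 0.0509), and Tgfbr1 lost its call without batch 1 (adjusted p = 0.0862) and batch 2 (adjusted p = 0.0989). Inhbb lost its call without batch 2 (adjusted p = 0.0664) and batch 3 (adjusted p = 0.0786). Gdf11 (adjusted p up to 0.305) lost its call in 3 of the 15 alternative settings. Skil (adjusted p up to 0.292) and Gdf15 (adjusted p up to 0.313) lost their calls in 6 of the 15 alternative settings.

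Guidance ligands and receptors had 14 of 55 called higher and 5 lower, 34.5% in all. Plxnb1, a semaphorin receptor, stood at 7.75 to 10.1 CPM with shRNF185.1 (median 8.64) and 13.7 to 18.8 CPM with shRNF185.3 (median 15) and differed by 0.85 (SE 0.099, adjusted p = 7.45e-06). Plxnd1 also was higher (0.53), and it lay above control with both hairpins (0.72 and 1.25). The 5 lower were Plxna2 (-0.51), the repellents Slit2 (-0.77) and Rgmb (-0.2), the netrin Ntn4 (-0.5) and the semaphorin Sema3e (-0.46). The last 4 were named after their values were seen. Sema3e lost its call without batch 1 (adjusted p = 0.142). Rgmb (adjusted p up to 0.307) lost its call in 11 of the 15 alternative settings.

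In the Notch list, 2 of the 23 tested were called higher with shRNF185.3 and 3 lower, 21.7% in all. The 2 higher were the receptors Notch4 and Notch3. Notch4 stood at 1.09 to 1.89 CPM with shRNF185.1 (median 1.28) and 2.94 to 4.11 CPM with shRNF185.3 (median 3.55) and differed by 1.38 (SE 0.17, adjusted p = 1.8e-05). Notch3, named after its values were seen, stood at 0.0355 to 1.56 CPM with shRNF185.1 (median 0.517) and 2.36 to 3.79 CPM with shRNF185.3 (median 2.83), and its lowest shRNF185.1 library was under the level that 3 counts give, 0.0934 to 0.122 CPM in that group. Its difference was 2.12 (SE 0.41, adjusted p = 0.00126). Among the 3 lower, Hes1 (-0.35), a transcriptional target of Notch, and Adam17 (-0.2), which cuts the receptors, were named after their values were seen. Notch3 differed by 1.28 on the log2(CPM + 1) scale. Hes1 lost its call without batch 1 (adjusted p = 0.0642), batch 2 (adjusted p = 0.168) and batch 3 (adjusted p = 0.0535), and Adam17 lost its call without batch 1 (adjusted p = 0.113) and batch 2 (adjusted p = 0.0607).

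Among interleukins and their receptors, 4 of the 35 tested were called higher with shRNF185.3 and 4 lower, 22.9% in all. Besides Il1rl1, Il7 was lower (-0.65) and Il1r1 higher (0.25), both with overlapping libraries. Outside the naming rule, Tslp (-1.18) and Il6ra (-0.25) were lower and Il18 (2.04), Il2rg (0.98) and Il18rap (0.37) higher. Il18 was at 0.0624 to 0.193 CPM with shRNF185.1 (median 0.134) and 0.429 to 0.653 CPM with shRNF185.3 (median 0.559), and its shRNF185.1 levels were near the level that 3 counts give. Il2rg shares 26% of its 75-base windows with another gene. Of the chemokines, Cxcl16, a membrane-bound ligand, stood at 35.8 to 49.5 CPM with shRNF185.1 (median 45.8) and 20.7 to 34.6 CPM with shRNF185.3 (median 22.5) and differed by -0.8 (SE 0.15, adjusted p = 0.0014), and Cxcl2 was lower too (-0.37). Ccl25 (0.46), Cx3cl1 (0.47), Cxcl12 (0.35) and Cxcl3 (0.42) were higher, among 22 tested, of which 27.3% were called. Cxcl2, Cxcl3 and Cxcl12 were named after their values were seen. Il18, Il2rg and Tslp differed by 0.45, 0.37 and -0.46 on the log2(CPM + 1) scale. Il7 lost its call without batch 1 (adjusted p = 0.161), and Il1r1 lost its call without batch 1 (adjusted p = 0.142) and batch 2 (adjusted p = 0.0907). Tslp lost its call without batch 3 (adjusted p = 0.0547), and Il2rg lost its call without batch 2 (adjusted p = 0.0609). Il18rap lost its call without batch 1 (adjusted p = 0.138) and batch 2 (adjusted p = 0.186), and Cx3cl1 lost its call without batch 1 (adjusted p = 0.0856). Cxcl3 lost its call without batch 1 (adjusted p = 0.0587) and batch 2 (adjusted p = 0.121). Il6ra (adjusted p up to 0.12) lost its call in 2 of the 15 alternative settings. Cxcl12 (adjusted p up to 0.238) lost its call in 3 of the 15 alternative settings. Cxcl2 (adjusted p up to 0.262) lost its call in 5 of the 15 alternative settings.

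Imprinted genes were called in both directions, with 6 of 41 called higher with shRNF185.3 and 6 lower. The share called was 29.3% against 14.7% over all genes, and the median was -0.022. Besides Peg10 and Dcn, Impact, a regulator of translation, stood at 5.85 to 8.69 CPM with shRNF185.1 (median 8.05) and 11.6 to 16.5 CPM with shRNF185.3 (median 14.4) and differed by 0.92 (SE 0.14, adjusted p = 0.000126), and Grb10, an adaptor that restrains insulin signalling, stood at 20.8 to 29.3 CPM with shRNF185.1 (median 22.9) and 33 to 41.7 CPM with shRNF185.3 (median 37.4) and differed by 0.66 (SE 0.083, adjusted p = 2.04e-05). Neither overlapped between hairpins, and both were below control with shRNF185.1 only (-0.78 and -0.58). Sgce, the neighbour of Peg10 in the same imprinted cluster, differed by 0.42 (SE 0.074, adjusted p = 0.000672) and was above control with both hairpins (0.26 and 0.68). The 3′ UTRs of Peg10 and Impact hold AATGGTA. Sgce was named after its values were seen. All imprinted genes named here were higher with shRNF185.3, and the 6 called lower are not reported here. The calls named here held in all 15 alternative settings.

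Protocadherins, which are neuronal adhesion genes in part encoded in clusters, had 8 of 35 called lower and 1 higher, 25.7% in all against 14.7% over all genes, with a median of -0.11. Pcdhb17 stood at 3.48 to 4.52 CPM with shRNF185.1 (median 4.0) and 2.05 to 2.83 CPM with shRNF185.3 (median 2.44) and differed by -0.69 (SE 0.098, adjusted p = 7.85e-05), and it was above control with both hairpins (1.3 and 0.61). Pcdh7, outside the clusters, differed by -0.38 (SE 0.051, adjusted p = 3.52e-05). The gene called higher was Pcdh1 (0.5), named after its values were seen. Pcdh1 lost its call without batch 1 (adjusted p = 0.14), batch 2 (adjusted p = 0.107) and batch 3 (adjusted p = 0.0657).

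S100 and annexin genes, which encode calcium-binding proteins, were called lower only, 6 of 21 (28.6%). Anxa11 stood at 58.4 to 67.3 CPM with shRNF185.1 (median 63.6) and 50.6 to 56.4 CPM with shRNF185.3 (median 53.5) and differed by -0.25 (SE 0.046, adjusted p = 0.000848), and Anxa3 and S100a6 differed by -0.35 and -0.32. Of 19 serpins, 1 was called higher and 4 lower, 26.3% in all against 14.7% over all genes. Serpina3h (-1.13), Serpinb1a (-0.27) and Serpinh1 were among those lower, and Serpinf1, which encodes a secreted inhibitor of vessel growth, was higher. Serpina3h and Serpinb1a were named after their values were seen. Serpinf1 stood at 4.26 to 6.99 CPM with shRNF185.1 (median 4.81) and 9.43 to 14.4 CPM with shRNF185.3 (median 10.5) and differed by 1.07 (SE 0.19, adjusted p = 0.000569). Serpina3h differed by -0.42 on the log2(CPM + 1) scale. Anxa11 shares 13.9% of its 75-base windows and Serpina3h 11% with other genes. Anxa3 lost its call without batch 1 (adjusted p = 0.0832), and S100a6 lost its call without batch 1 (adjusted p = 0.12). Serpina3h lost its call without batch 1 (adjusted p = 0.0617) and batch 3 (adjusted p = 0.0719). Serpinb1a (adjusted p up to 0.275) lost its call in 5 of the 15 alternative settings.

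Rab GTPases, which direct vesicle traffic, had 5 of 48 called higher and 7 lower, 25.0% in all. Rab21, of early endosomes, stood at 33.2 to 37.6 CPM with shRNF185.1 (median 35.6) and 52.6 to 62.6 CPM with shRNF185.3 (median 58.2) and differed by 0.73 (SE 0.067, adjusted p = 5.13e-07), and Rab18 and Rab22a differed by 0.57 and 0.32. The other two called higher were Rab40c (0.22) and Rab36 (0.46), named after their values were seen. Of the 5, Rab21, Rab18, Rab22a and Rab40c hold AATGGTA in the 3′ UTR, and none of the 6 called lower that were scanned does. Among the 44 Rab genes scanned, 6 hold it (13.6%). Over all scanned genes, 25.3% of those called higher and 6.63% of those called lower hold it. AATGGTA was picked by these same differences, and no test of the Rab genes is given. Among those lower, Rab27a and Rab27b, which act in secretion of granules, differed by -1.55 (SE 0.18, adjusted p = 6.1e-06) and -0.57 (SE 0.13, adjusted p = 0.00545). Rab27a, named after its values were seen, stood at 1.58 to 3.24 CPM with shRNF185.1 (median 2.96) and 0.694 to 1.12 CPM with shRNF185.3 (median 0.959). Rab27a differed by -0.93 on the log2(CPM + 1) scale. Rab40c lost its call without batch 1 (adjusted p = 0.12), and Rab36 lost its call without batch 1 (adjusted p = 0.126) and batch 2 (adjusted p = 0.0549). Rab27b lost its call without batch 1 (adjusted p = 0.0875) and batch 3 (adjusted p = 0.0743).

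Among genes of lipid metabolism, Pltp, a phospholipid transfer protein, stood at 10.6 to 16.2 CPM with shRNF185.1 (median 12.1) and 27 to 35.6 CPM with shRNF185.3 (median 30.5), without overlap, and differed by 1.3 (SE 0.091, adjusted p = 1.6e-08). The sterol list had 2 of 25 called higher and 3 lower. Sc5d (0.44), an enzyme of cholesterol synthesis, was among those higher, and Acat2 (-0.3) and Ebp (-0.22) were among those lower. Pltp, Sc5d, Acat2 and Ebp were named after their values were seen. Acat2 shares 33.9% of its 75-base windows with another gene. Sc5d lost its call without batch 1 (adjusted p = 0.0792) and batch 2 (adjusted p = 0.104), and Acat2 lost its call without batch 1 (adjusted p = 0.152) and batch 2 (adjusted p = 0.057). Ebp lost its call without batch 2 (adjusted p = 0.0813) and batch 3 (adjusted p = 0.0772).

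Of genes that act with Rnf185 in degradation from the endoplasmic reticulum, 2 of 46 were called higher and 4 lower, 13% in all and so close to the 14.7% over all genes, and the median was -0.014. Erlin2, part of a membrane complex that hands substrates to ubiquitin ligases, stood at 60.6 to 62 CPM with shRNF185.1 (median 61.4) and 79.2 to 85 CPM with shRNF185.3 (median 82.4), without overlap, and differed by 0.42 (SE 0.035, adjusted p = 1.31e-07). It was below control with shRNF185.1 (-0.39) and near it with shRNF185.3 (0.031), and its 3′ UTR holds AATGGTA. Its partner Erlin1 (0.31) was higher, and Herpud2 (-0.31), Sel1l (-0.22) and Ube2g2 (-0.14) were among those lower, all but Sel1l named after their values were seen. Of 25 genes of the unfolded protein response, 1 was called (4.0%), and it was Sel1l. Sel1l lost its call without batch 1 (adjusted p = 0.175) and batch 2 (adjusted p = 0.122). Erlin1 (adjusted p up to 0.153) lost its call in 2 of the 15 alternative settings. Ube2g2 (adjusted p up to 0.193) lost its call in 8 of the 15 alternative settings.

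In the small RNA pathway itself, 2 of 18 genes were called, both higher with shRNF185.3, which is 11.1% and not above the 14.7% over all genes. Tnrc6a, the GW182 protein that carries silencing from Argonaute, stood at 79 to 93.5 CPM with shRNF185.1 (median 90.5) and 132 to 153 CPM with shRNF185.3 (median 139.8), without overlap, and differed by 0.67 (SE 0.058, adjusted p = 2.18e-07). It was at -0.11 against control with shRNF185.1 and 0.56 with shRNF185.3, and its 3′ UTR holds AATGGTA. The other was Prkra, a partner of Dicer (0.22), named after its values were seen. Prkra (adjusted p up to 0.192) lost its call in 10 of the 15 alternative settings.

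The median of the interferon-stimulated genes was 1.82 against control with shRNF185.1 and 1.64 with shRNF185.3, and 3 of 59 were called between the hairpins, 5.08% against 14.7% over all genes. Gbp2, an interferon-induced GTPase, stood at 40.04 to 54.1 CPM with shRNF185.1 (median 50.6) and 24.9 to 50.1 CPM with shRNF185.3 (median 28.3) with overlap and differed by -0.66 (SE 0.16, adjusted p = 0.00872). Oas1a (-0.92) was lower and Eif2ak2 (0.4), the kinase PKR, higher, named after their values were seen. Oas1a shares 47.6% of its 75-base windows with another gene, so its count is uncertain. Of 22 genes of class I presentation, H2-T23 was called (-1.01), 4.55% of the list. The libraries of a hairpin spread widely in this list, with an SD of 0.38 in its mean log2 level over the 6 shRNF185.1 libraries. Without batch 3, Oas1a differed by -1.39. Gbp2 lost its call without batch 1 (adjusted p = 0.215) and batch 2 (adjusted p = 0.14), and Oas1a lost its call without batch 1 (adjusted p = 0.393) and batch 2 (adjusted p = 0.189). H2-T23 (adjusted p up to 0.264) lost its call in 2 of the 15 alternative settings. Eif2ak2 (adjusted p up to 0.191) lost its call in 7 of the 15 alternative settings.

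Several lists of growth and basic metabolism had a share called under the 14.7% over all genes, and that difference was not tested. Of 69 mitosis genes Ccna2 and Ndc80 were called, and of 56 DNA replication genes E2f2, Cdc45 and Ccne2. Of 95 subunits of oxidative phosphorylation Atp5j (0.22) and Ndufs8 (0.19) were called, of 84 cytosolic ribosomal proteins Rpl22 (0.18) and Rpl17 (0.18), and of 37 proteasome subunits Psmd11 (-0.22). Ccna2, cyclin A2, stood at 166 to 225 CPM with shRNF185.1 (median 205) and 247 to 303 CPM with shRNF185.3 (median 290.2), without overlap, and differed by 0.51 (SE 0.072, adjusted p = 5.92e-05), being further below control with shRNF185.1 (-0.72) than with shRNF185.3 (-0.21). Ndc80, of the kinetochore, differed by 0.25. E2f2, a regulator of S phase, differed by -0.41 (SE 0.066, adjusted p = 0.00027), Cdc45, of the replicative helicase, by -0.41, and Ccne2, cyclin E2, by 0.75. Ndc80, Cdc45, Ccne2, Ndufs8 and Rpl22 were named after their values were seen. Of the amino acid response and one-carbon genes, 6 of 32 were called higher and 0 lower, 18.75% against 14.7% over all genes. Of the 32, 25 lay above 0, and over all 14309 genes tested 7138 did. In the other lists here, 76 of 84 cytosolic ribosomal proteins and 68 of 95 oxidative phosphorylation subunits lay above 0. So did 44 of 69 mitosis genes, 26 of 37 proteasome subunits and 10 of 56 DNA replication genes. Aldh1l2, a mitochondrial folate enzyme, stood at 53.2 to 70.2 CPM with shRNF185.1 (median 61.5) and 76.4 to 102 CPM with shRNF185.3 (median 96.3) and differed by 0.6 (SE 0.1, adjusted p = 0.000401). Rpl17 shares 43.6% of its 75-base windows with other genes, so its count is uncertain. Cdc45 lost its call without batch 2 (adjusted p = 0.0771), and Atp5j lost its call without batch 1 (adjusted p = 0.115) and batch 2 (adjusted p = 0.103). Psmd11 lost its call without batch 1 (adjusted p = 0.11) and batch 2 (adjusted p = 0.0545). Ndc80 (adjusted p up to 0.171) lost its call in 3 of the 15 alternative settings. Rpl22 (adjusted p up to 0.256) lost its call in 4 of the 15 alternative settings. Ndufs8 (adjusted p up to 0.386) and Rpl17 (adjusted p up to 0.287) lost their calls in 5 of the 15 alternative settings.

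Homeobox cluster genes had 4 of 20 called higher and 1 lower, 25.0% in all. Hoxb9 and Hoxb8 were low in level and differed by 0.93 (SE 0.15, adjusted p = 0.000302) and 0.8 (SE 0.14, adjusted p = 0.000549), Hoxa6 and Hoxa9 by 0.36 and 0.26, and Hoxb7, of the same cluster as Hoxb8 and Hoxb9, by -0.41. Gata2, a zinc finger factor listed with the prostate lineage, stood at 1.6 to 2.5 CPM with shRNF185.1 (median 2.02) and 3.49 to 4.43 CPM with shRNF185.3 (median 4.14) and differed by 0.98 (SE 0.12, adjusted p = 1.43e-05), while Foxa2 was lower (-0.93). Of the 27 tested genes of that lineage list 3 were called (11.1%, under the 14.7% over all genes), the third being Krt18. Hoxb8, Hoxb9 and Foxa2 were named after their values were seen. Hoxb9 and Hoxb8 differed by 0.59 and 0.49 on the log2(CPM + 1) scale. Hoxa9 lost its call without batch 1 (adjusted p = 0.0519) and batch 2 (adjusted p = 0.13), and Hoxb7 lost its call without batch 1 (adjusted p = 0.171) and batch 2 (adjusted p = 0.0695). Hoxa6 (adjusted p up to 0.251) lost its call in 7 of the 15 alternative settings.

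Of the 9 genes tested on the Y chromosome, 3 were called, all lower with shRNF185.3, a share of 33.3% against 14.7% over all genes, and the median was -0.14. The 3 are among the 4 tested of a list of Y chromosome genes. Uty, a histone demethylase relative, stood at 6.24 to 9.69 CPM with shRNF185.1 (median 8.48) and 3.41 to 5.67 CPM with shRNF185.3 (median 4.42), without overlap, and differed by -0.88 (SE 0.13, adjusted p = 0.000124). Kdm5d differed by -0.67 (SE 0.11, adjusted p = 0.000466) and Ddx3y by -0.46 (SE 0.12, adjusted p = 0.0158), and Eif2s3y had a difference of -0.35 (SE 0.16, adjusted p = 0.17). All 3 called genes were above control with shRNF185.1 (0.9, 0.82 and 0.61) and near it with shRNF185.3 (0.014, 0.15 and 0.15). They and Eif2s3y were named after their values were seen. Ddx3y lost its call without batch 1 (adjusted p = 0.103), batch 2 (adjusted p = 0.0513) and batch 3 (adjusted p = 0.105).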

How the data were processed

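Total RNA of 18 MPC3 libraries was poly(A)-selected, sequenced from a single end and quantified by the submitters. The authors deposited estimated counts per gene after a batch adjustment with ComBat-Seq, per the labels; 0.466% of the values are not whole, and they were rounded here. The analysis had been planned for whole counts. The authors also deposited a normalised signal, counts scaled per library on effective library sizes (column sums 969986 to 1026394), printed here as CPM. The submitters' processing notes name cutadapt 2.3, STAR 2.7.0d, RSEM 1.3.1 and the mm10 build, without roles. Whether ComBat-Seq was given the groups is not given in the sources used here.

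Groups follow the labels. Counts were filtered with filterByExpr (minimum count 10), normalised by TMM and fitted over all 18 libraries with 3 group means in edgeR 4.0.16 (R 4.3.3), using the quasi-likelihood F test with Benjamini-Hochberg adjustment over 14309 genes. The 2 comparisons with control came from the same fit and share the control libraries. The steps were tested on simulated data. Identifiers were matched to GENCODE M21 on GRCm38, 99.68% of the tested ones to a symbol and all but 46 to a position. Duplicate libraries were looked for among 30 pairs of libraries within the hairpin groups, and their chi-square per gene of 7.64 to 47.1 showed none deposited 2 times among these pairs. Control libraries and pairs between groups were not compared.

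Genes were named by rule: Rnf185, Rnf5 and Col3a1, the 12 highest and 12 lowest called genes by log2 difference (same direction in all 3 batches, mean count 50 or more), up to 3 called genes of lowest p per list (up to 1 where the share called was under 1.5 times that of all genes), and neighbours of the 3 genes of lowest p. Other names are marked in the text as chosen after their values were seen. A few genes that the rule or the counts include are not reported here. The comparison, the 59 gene lists and the rule were chosen with earlier results of these data known, and no set test was run. Alternatives were DESeq2 1.42.0, limma 3.58.1 (voom, and log2 of CPM plus 1), other filters, scaling, GC and length offsets, batch and replicate terms, sums by batch and each batch left out.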

Additional observations from a re-analysis of the deposited data

Results flagged for a closer look

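Among 370 groups of 6 libraries (a named gene in 1 hairpin group), 32 had a highest or lowest library set apart from the rest by more than the 95% critical value of Dixon’s ratio, and chance gives about 18. Values are CPM, with that of the nearest library after each. shRNF185.1 library 2 was lowest for Cxcl3 10.67 (next 11.9). shRNF185.1 library 5 was highest for P4ha3 46.33 (next 37.8), Plxnd1 102.2 (next 92.69) and Rab40c 31.35 (next 28.36). shRNF185.1 library 5 was lowest for Golga7 79.46 (next 88.76), Oas1a 5.367 (next 10.29) and Rab27a 1.583 (next 2.512). shRNF185.1 library 6 was lowest for Adam17 81.42 (next 88.11), Fnbp1l 84.86 (next 90.93), Gbp2 40.04 (next 48.43) and Met 132.1 (next 150.6). It was so too for Plxna2 72.31 (next 91.31), Timp3 377.3 (next 492.2) and Tnrc6a 78.97 (next 88.0). shRNF185.3 library 1 was highest for Lonrf3 17.08 (next 14.84). shRNF185.3 library 1 was lowest for Cdh3 8.274 (next 11.64), Cxcl12 1530.0 (next 1949.0), Ski 82.26 (next 88.33) and Snai2 15.66 (next 20.96). shRNF185.3 library 5 was highest for Gbp2 50.06 (next 28.87), H2-T10 2.41 (next 1.868) and Oas1a 11.01 (next 5.294). shRNF185.3 library 5 was lowest for Atp5j 92.02 (next 100.1), Ccna2 247.3 (next 283.6), Eif4enif1 82.92 (next 86.52) and Gm10718 2.077 (next 4.883). It was so too for Ist1 89.82 (next 96.38) and Rpl22 285.2 (next 312.3). shRNF185.3 library 6 was highest for Pkp1 113.6 (next 102.8), Serpinf1 14.37 (next 10.94) and Slit2 56.96 (next 44.16). shRNF185.3 library 6 was lowest for P4ha3 38.42 (next 44.41). Of the set-apart values, 9 were in shRNF185.3 library 5 and 7 in shRNF185.1 library 6. The number of samples limits what can be read from single libraries, and no cause was tested. No hairpin difference of a named gene differed between batches at an adjusted p under 0.05 in edgeR's interaction test. The highest and lowest genes were named only if they kept their direction in all 3 batches. The counts were already adjusted for batch, so this absence is in part built in.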

How the results depend on the processing

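Between the hairpins, 2098 genes were called, and the other settings gave 1631 (batch covariate) to 2638 (GC and length offset), except that leaving out a batch gave 753 (batch 1), 1208 (batch 2) and 1794 (batch 3), with fewer libraries in each. Against control, shRNF185.1 had 4141 calls and 2207 without batch 1, and shRNF185.3 had 3906 calls, 2120 without batch 1 and 2501 without batch 3. The hairpin difference differed between batches for 46 genes, 29 with limma-voom, 52 on library size alone and 1031 with no filter beyond 1 count; the cause was not tested. Replicate numbers did not pair the libraries: same-numbered libraries of both hairpins correlated at -0.0136 to 0.705, with 2 of 6 pairs over 0.1 and the own number best for 2 shRNF185.1 libraries. With the replicate block 1976 genes were called, of which 1808 were shared, and with the block plus GC and length offset 2510. Col3a1 passed the threshold with the block (adjusted p = 0.00931). The Rnf185 difference changed sign around 0, to 0.0007 (12 hairpin libraries), 0.0171 (GC and length offset), 0.002 (mean count of at least 50), 0.0026 (replicate block), 0.0218 (block with offset), 0.0358 (without batch 2) and 0.0442 (without batch 3), and was -0.09 without batch 1. Uncalled neighbours also changed sign, Dtna to 0.0139 and Zfp397 to -0.0066 without batch 1 and Lonrf3 to 0.032 without batch 2. The difference in median between genes with and without AATGGTA, 0.0802, ran from 0.0699 to 0.0973 over alternatives chosen after seeing the data. Of 175 called genes named in the text, 94 kept their call in all 15 settings and none reversed; 70 lost it without batch 1, 58 without batch 2 and 33 without batch 3.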
